A study of Mus musculus with 6 samples.

Results

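Relaxation of the colon wall by enteric neurons was followed through 9 genes, matched by symbol in the deposited gene lists: the nitric oxide synthase gene Nos1, the peptide genes Vip, Gal and Npy, the vasoactive intestinal peptide receptor genes Vipr1 and Vipr2, and the nitric oxide effector genes Gucy1a1, Gucy1b1 and Prkg1. All 9 were present among the 31053 genes of each of 6 single-nucleus RNA-seq libraries. The libraries held nuclei of the enteric nervous system (ENS) from total colon of WT C57BL/6J mice, sorted on DAPI and on INTACT, a tag on the nuclear envelope whose driver the labels do not name. The Control group (2 libraries) had the control treatment, the Stress group (3 libraries) had daily restraint for 7 days, and the Dexamethasone group (1 library) had injections of this synthetic glucocorticoid for 7 days. The labels give no age and no dose, and do not say whether replicates came from separate animals, so p-values here reflect only the spread among libraries, which may be technical.

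Nitric oxide and vasoactive intestinal peptide are the classical relaxing transmitters of the gut. Inhibitory motor neurons make nitric oxide with neuronal nitric oxide synthase, the Nos1 product, and release the Vip peptide together with it, and some of them also carry galanin (Gal) or neuropeptide Y (Npy). Nitric oxide binds soluble guanylyl cyclase, a pair of an alpha subunit (Gucy1a1) and a beta subunit (Gucy1b1), and the cyclic GMP it makes activates the protein kinase encoded by Prkg1, which lowers the response of smooth muscle to calcium. The Vip peptide binds the receptors encoded by Vipr1 and Vipr2, which couple to the stimulatory G protein and raise cyclic AMP, in muscle and, for secretion, in the epithelium.

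Sequences before RefSeq starts of the 3 transmitter genes with the most unique molecules counted are given below. They are shown because Vip is a textbook target of cyclic AMP signalling through CREB, the factor that binds the cyclic AMP response element. The 250 bases before each RefSeq start (GRCm38.p6) were searched on both strands for the element TGACGTCA, its shorter form TGACGT and the TATA box TATAAA, and the capitals mark TGACGT and TATAAA. The Vip window is chr10:5638968-5639217 on the plus strand, the Nos1 window chr5:117866589-117866838 on the plus strand, and the Gal window chr19:3414545-3414794 on the minus strand.
Vip: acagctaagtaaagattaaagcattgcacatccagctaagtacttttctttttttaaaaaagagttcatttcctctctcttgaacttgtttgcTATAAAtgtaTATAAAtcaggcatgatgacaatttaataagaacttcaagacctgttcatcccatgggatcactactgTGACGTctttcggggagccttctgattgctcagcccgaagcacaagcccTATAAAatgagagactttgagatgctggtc
Nos1: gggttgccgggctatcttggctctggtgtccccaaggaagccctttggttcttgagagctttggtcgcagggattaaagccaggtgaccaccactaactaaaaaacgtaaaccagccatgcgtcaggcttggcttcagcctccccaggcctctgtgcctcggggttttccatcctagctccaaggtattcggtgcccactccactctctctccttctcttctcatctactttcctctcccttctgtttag
Gal: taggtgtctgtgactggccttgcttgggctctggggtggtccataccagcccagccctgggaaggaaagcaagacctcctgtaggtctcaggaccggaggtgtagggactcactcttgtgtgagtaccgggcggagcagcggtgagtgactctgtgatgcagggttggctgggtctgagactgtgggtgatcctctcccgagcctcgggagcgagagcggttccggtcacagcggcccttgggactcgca
The Vip window held 1 TGACGT, 73 bases before the start, and 3 copies of TATAAA, 151, 141 and 24 bases before it, with no overlap between the motifs. TGACGT stood in 6.47% and TATAAA in 12.4% of the 32851 windows of the same length in the RefSeq table. None of the other 8 genes held either motif in its windows (11 windows over the 9 genes), and TGACGTCA, present in 1.55% of all windows, was in none of the 9. These matches describe letters and say nothing of a factor being bound.

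In the GENCODE M21 annotation of GRCm38 (mm10), Nos1 (ENSMUSG00000029361) spans chr5:117781032-117958840 on the plus strand, so that the window above lies inside the annotated gene. That window is therefore not shown to be the Nos1 promoter, and the bases before the annotated start of Nos1 were not searched. Vip (ENSMUSG00000019772) spans chr10:5639218-5647617 on the plus strand, and Gal (ENSMUSG00000024907) chr19:3409915-3414544 on the minus strand. Npy (ENSMUSG00000029819) lies at chr6:49822710-49829507, Vipr1 (ENSMUSG00000032528) at chr9:121642716-121672954 and Vipr2 (ENSMUSG00000011171) at chr12:116077726-116146261, all on the plus strand. Gucy1a1 (ENSMUSG00000033910, chr3:82092427-82145789) and Gucy1b1 (ENSMUSG00000028005, chr3:82032006-82074689) are neighbours on the minus strand, 17.7 kb apart with 0 genes between them. Prkg1 (ENSMUSG00000052920) covers 1201 kb at chr19:30564489-31765033 on the minus strand, of which 0.905% is exon. Levels of different genes were not compared with each other, because nuclear RNA holds introns and whether these were counted is not given in the sources used here. Nos1 overlaps the counted gene Gm26995, Vipr2 overlaps Gm20658 and Prkg1 overlaps Cstf2t, each on the opposite strand.

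The 6 libraries held 853 to 3042 barcodes and 6057994 to 14838057 unique molecular identifiers (UMIs, counts of single RNA molecules), 11040 barcodes in all. Median mitochondrial shares of their barcodes ran from 4.44% (Stress 3) to 19.8% (Control 2). Nuclei of 300 or more genes and no more than 5% mitochondrial UMIs were kept (3430 nuclei, 378 to 765 a library, median 1628.5 to 3970 UMIs) and fell into 24 clusters. Of the barcode sequences, 17 occurred in more than 1 library and 3 were kept in more than 1. Classes named from marker genes were neuron-like (444 nuclei in clusters 6, 10, 19 and 21), glia-like (878), epithelium-like (719), smooth muscle-like (229), lymphatic endothelium-like (158), fibroblast-like (205), cycling cell-like (67), vascular endothelium-like (38) and enteroendocrine-like (23), and 6 clusters stayed unnamed. Glia and neurons are the cells of the ENS, so that the sorted nuclei also held other cells of the wall. The neuron-like nuclei contained 131, 59, 33, 96, 97 and 28 nuclei in Control 1 and 2, Stress 1 to 3 and Dexamethasone. Of the 10 neuron markers, Tubb3 was at 0 in them. The order of libraries is the same wherever values are listed. Levels are UMIs per 1000000 UMIs of the nuclei named (CPM), and the 9 genes took no part in the clustering.

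Nos1 marked 1 group of neurons. Cluster 6, with 204 of the 444 neuron-like nuclei, held 5101 of the 5510 Nos1 UMIs in kept nuclei (92.6%), at 2579 CPM. Of the 5 other markers of inhibitory motor neurons, 3 were in most of its nuclei: the transcription factor gene Etv1 in 84.3% of its nuclei, the glial cell line-derived neurotrophic factor receptor gene Gfra1 in 83.3%, and Ass1, whose enzyme recycles citrulline to the nitric oxide precursor arginine, in 81.4%. Rprml was found in 24.0% and the peptide gene Cartpt in 22.5%, and Cartpt was in more nuclei of cluster 21 (50%). Of the genes of excitatory motor neurons, Chat, which makes acetylcholine, was in 4.90% and the substance P gene Tac1 in 18.1% of the nuclei of cluster 6. Cluster 6 made up 39.6% to 51.5% of the neuron-like nuclei of a library, with 63, 25, 15, 38, 50 and 13 nuclei. Next in order of Nos1 came the unnamed cluster 14 (796 CPM from 77 UMIs, led by the neuronal genes Penk, Tac1 and Syt4 and left unnamed for its low UMI counts) and the neuron-like cluster 19 (153 CPM), and the other 21 clusters were at 55 CPM or less.

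**Figure D1:**
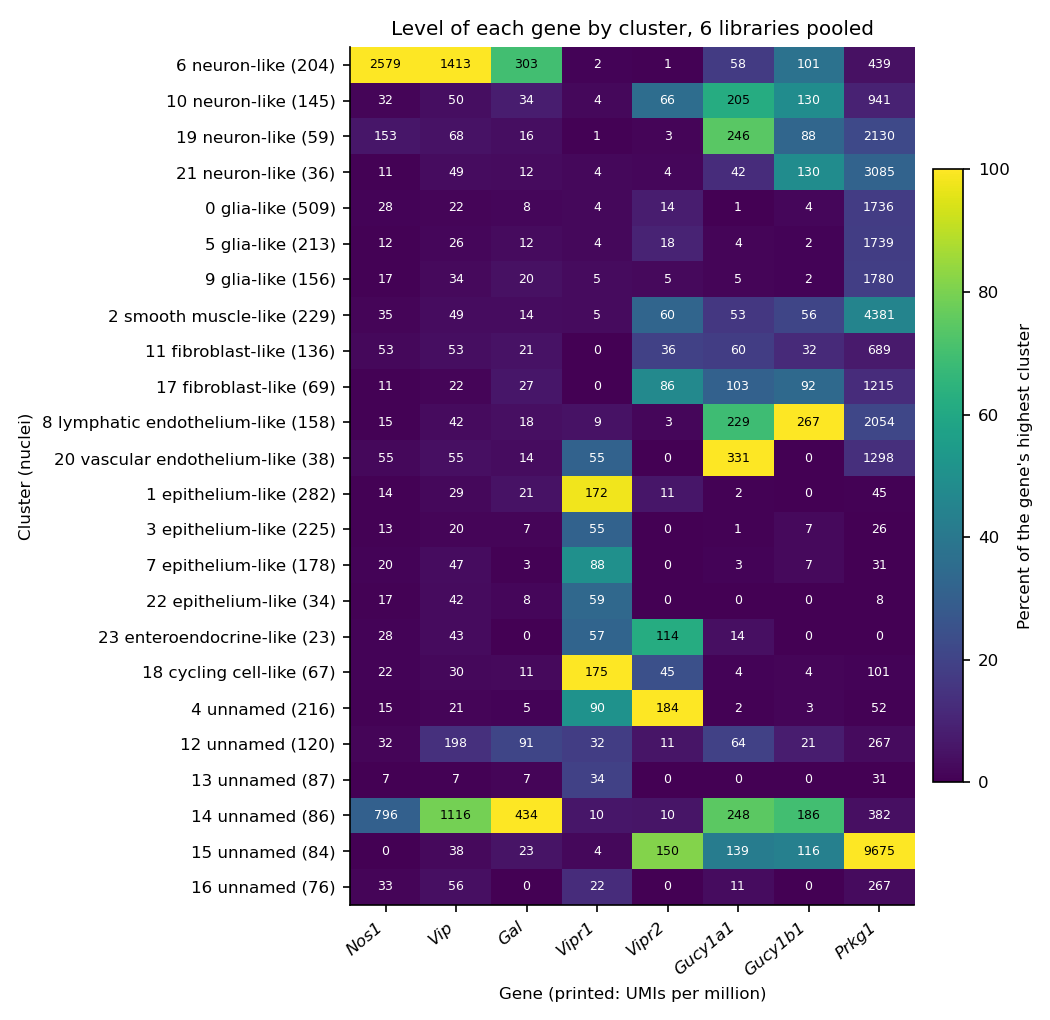
Levels of 8 of the 9 genes (Npy is left out for its few UMIs) in the 24 clusters, in CPM, printed in each cell, with colour as the percent of the gene's highest cluster. Nos1, Vip and Gal have high values in cluster 6 and in the small cluster 14, Vipr1 in clusters of the epithelium and of cycling cells, Vipr2 in cluster 4, and Prkg1 in cluster 15 and smooth muscle.

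Vip and Gal followed Nos1 across the 24 clusters, but not from nucleus to nucleus within cluster 6. There 26 nuclei, described further below, held 1422 of the cluster's Vip UMIs and 373 of its Gal UMIs but 36 of its Nos1 UMIs. Of 3326 Vip UMIs, 2796 were in cluster 6 (1413 CPM), and cluster 14 (1116 CPM) and the unnamed cluster 12 (198 CPM) came next. Gal had 599 of 813 UMIs in cluster 6 (303 CPM), and its 434 CPM in cluster 14 came from 42 UMIs, 33 of them in Control 2. Over the 24 clusters the correlation of log2(CPM + 10) was 0.90 between Nos1 and Vip and 0.87 between Vip and Gal, and the clusters share libraries and differ in depth. Among 8297 genes the 3 most like Nos1 were Vip, the synaptic gene Rims3 (0.82) and the predicted gene Gm11342 (0.82). For Vip they were Nos1, Gal and Rims3 (0.81), and for Gal they were Vip, Qdpr (0.82), whose enzyme regenerates the tetrahydrobiopterin cofactor of nitric oxide synthase, and Tmem158 (0.80).

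Within cluster 6, nuclei with Nos1 and nuclei with Vip were not the same set. With each nucleus thinned to 1000 UMIs (11 shallower nuclei left out), a Nos1 UMI was found in 158 of 193 nuclei (81.9%, exact binomial 95% interval 75.7% to 87.0%, covering counting error only). Vip was found in 54 of 193 (28%, 21.8% to 34.9%) and Gal in 12 of 193 (6.22%, 3.25% to 10.6%). Vip was present in 36 of the 158 nuclei with Nos1 (22.8%) and in 18 of the 35 without it (51.4%). Across these 193 nuclei the correlations of the thinned counts were -0.07 for Nos1 and Vip, -0.01 for Vip and Gal and -0.09 for Nos1 and Gal, weak values in sparse counts. In the other neuron-like clusters Nos1 was found in 9 of 222 thinned nuclei (4.05%) and Vip in 7 of 222 (3.15%). The background in glia-like nuclei, which are not a source of these transmitters, was 1.86% for Nos1, 3.22% for Vip and 0.743% for Gal of 808 thinned nuclei (median 3235 UMIs before thinning, against 5778.5 in neuron-like nuclei). The Vip share outside cluster 6 is therefore at the background.

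A finer clustering divided cluster 6 by Vip without using it. At Leiden resolution 2, 132 of its nuclei formed a cluster with 2994 CPM of Nos1 and 142 CPM of Vip, and 72 formed most of another with 2144 CPM of Nos1 and 2706 CPM of Vip. Vip in the first was 84.3, 148, 146, 73.2, 239 and 76.5 CPM, and in the second 886, 1753, 2124, 4247, 1687 and 4318 CPM. The second had 24, 8, 4, 12, 20 and 5 nuclei. In Stress 2, 1 nucleus held 618 of its 1048 Vip UMIs, and in Dexamethasone 1 held 540 of 802. Both of these nuclei had 0 Nos1 UMIs, so the pooled levels do not show Nos1 and Vip in the same nuclei. Each library had more Vip in the second, and the ranges over libraries did not overlap. Nos1 was 2685, 2745, 3481, 3279, 3340 and 1559 CPM in the first and 1791, 1375, 2185, 1965, 2830 and 1793 CPM in the second, higher in the first in 5 of the 6 libraries. The first held 60% to 73.3% of the nuclei of cluster 6 in each library.

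Npy was scarce. Kept nuclei held 27 Npy UMIs, 13 of them in cluster 6, and 10 of 444 neuron-like nuclei had one before thinning (2.25%). None of the 415 thinned ones did, which limits the share of nuclei with an Npy UMI at 1000 UMIs to 0.885% and not the share that express it. In the sum over all deposited barcodes Npy had 2, 8, 10, 70, 25 and 31 UMIs, or 0.288, 0.539, 1.65, 5.32, 2.72 and 3.53 CPM. A single barcode held 37 of the 70 UMIs of Stress 2, and another 11 of the 31 of Dexamethasone. Without the barcode of most Npy UMIs the values were 0.144, 0.472, 1.16, 2.51, 2.19 and 2.28 CPM. With all barcodes, 12.5% of the 15767 genes of at least 50 UMIs had all Stress libraries above both Control libraries, as Npy did.

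In cluster 6 Nos1 stood at 2245 and 2246 CPM in Control 1 and 2, at 3033, 2639 and 3098 CPM in Stress 1 to 3 and at 1709 CPM in Dexamethasone. All 3 Stress libraries were above both Control libraries and the Dexamethasone library was below both. The Stress mean was 2923 ± 248 CPM (SD, n = 3) against 2246 ± 1.17 (SD, n = 2), a ratio of 1.30. This difference did not pass edgeR's quasi-likelihood test, with a log2 fold change of 0.34 (SE 0.17) and an adjusted p of 0.518. Thinned to equal depth, 78.2% and 79.2% of Control nuclei, 100%, 81.6% and 85.7% of Stress nuclei and 66.7% of Dexamethasone nuclei of the cluster held a Nos1 UMI. Here too the 3 Stress libraries were above both Control libraries (exact permutation test over libraries, two-sided p = 0.2, where the smallest possible is 0.1). Nuclei of the cluster also differed in depth between the groups, with medians of 3453 and 4510 UMIs in Control, 6670, 11204 and 10068 in the Stress libraries and 11631 in Dexamethasone.

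Vip in cluster 6 was 484 and 732 CPM in Control, 830, 2107 and 925 CPM in Stress and 2790 CPM in Dexamethasone. The Stress libraries and the Dexamethasone library were all above both Control libraries, with Stress 2 and Dexamethasone far above the rest. The means were 608 ± 175 CPM (SD, n = 2) in Control and 1288 ± 712 CPM (SD, n = 3) in Stress. The log2 fold change for Stress was 1.10 (SE 0.33, edgeR adjusted p = 0.249). The Vip peptide transcript was concentrated in single nuclei: 1 nucleus held 618 of the 1067 Vip UMIs of Stress 2 (57.9%), and 1 held 540 of 810 in Dexamethasone (66.7%), where 2 nuclei held 97.7%. Without the nucleus of most Vip UMIs in each library the values were 419, 477, 447, 950, 762 and 1087 CPM. Stress and Control then overlapped, and Dexamethasone was above both Control libraries, on 1 further nucleus with 251 UMIs. Without the 2 nuclei of most Vip UMIs the values were 356, 249.5, 285, 740, 625 and 159 CPM, and Dexamethasone, with 19 UMIs left, was below both Control libraries. The share of thinned nuclei with Vip was 27.3% and 25% in Control, 26.7%, 26.3% and 32.7% in the Stress libraries and 25% in Dexamethasone, overlapping between all groups (exact permutation p = 0.6 for Stress against Control).

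**Figure D2:**
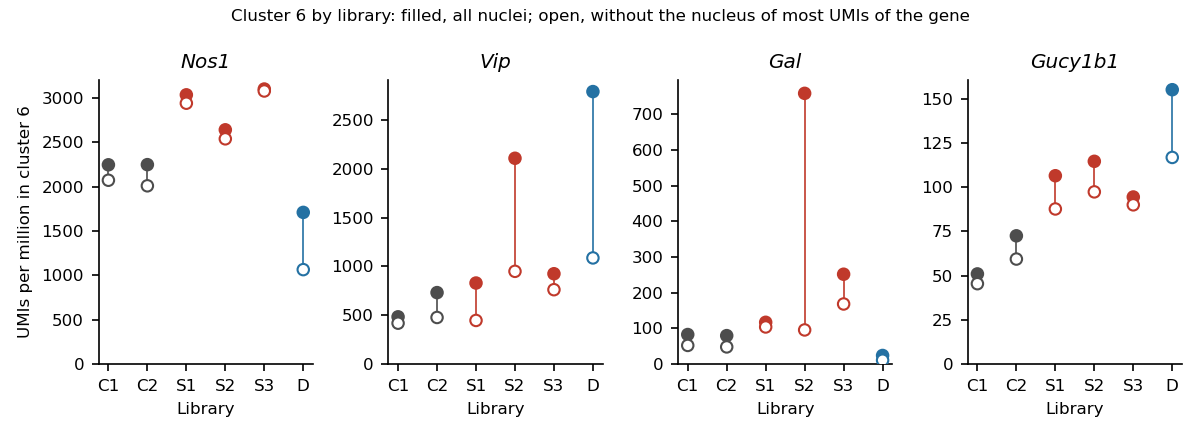
Nos1, Vip, Gal and Gucy1b1 in cluster 6 by library (C Control, S Stress, D Dexamethasone), in CPM on a linear axis, filled with all nuclei and open without the nucleus with most UMIs of that gene. The 3 Stress libraries stand above both Control libraries for all 4 genes with all nuclei, and for Nos1, Gal and Gucy1b1 without that nucleus, and the distance between filled and open points is widest for Vip and Gal in Stress 2 and for Vip in Dexamethasone.

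Gal in cluster 6 was 82.8 and 79.7 CPM in Control, 117, 758 and 252 CPM in Stress and 24.1 CPM (7 UMIs) in Dexamethasone. The Stress libraries were all above Control and the Dexamethasone library below it. The means were 81.2 ± 2.17 CPM (SD, n = 2) in Control and 376 ± 338 CPM (SD, n = 3) in Stress. The log2 fold change for Stress was 2.31 (SE 0.55) and did not pass (edgeR adjusted p = 0.102). It passed without Stress 1 (2.57, edgeR adjusted p = 0.0144) and without Stress 2 (1.35, edgeR adjusted p = 0.0454), so that the call turns on these libraries. A single nucleus held 338 of the 384 Gal UMIs of Stress 2 (88.0%), and without the nucleus of most Gal UMIs the values were 52.3, 48.1, 104, 95.6, 168 and 10.9 CPM, still higher in each Stress library than in Control. Thinned nuclei with Gal made up 1.82% and 0% in Control, 20%, 7.89% and 10.2% in the Stress libraries and 0% in Dexamethasone (exact permutation p = 0.2 for Stress against Control). The Control shares lie near the 0.743% of glia-like nuclei.

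**Figure D3:**
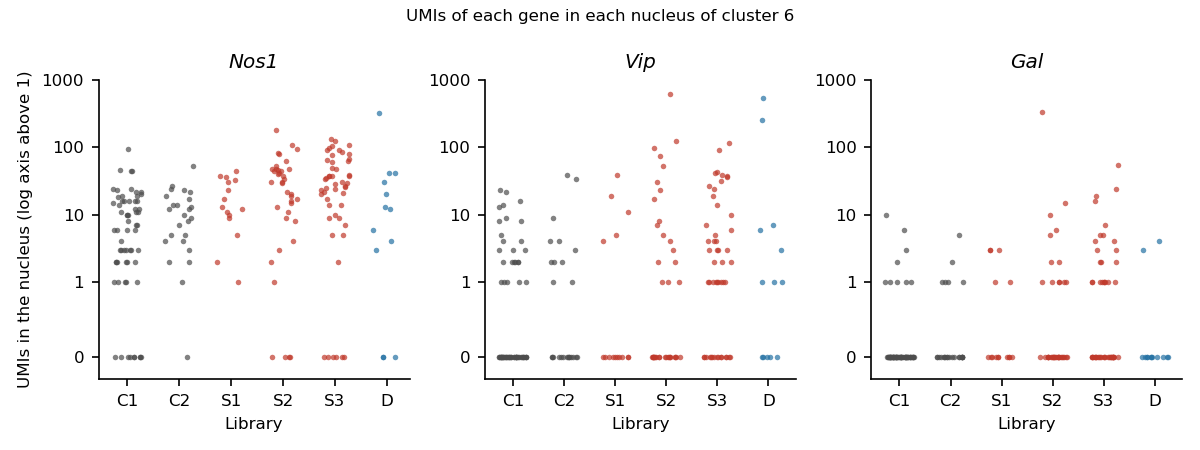
UMIs of Nos1, Vip and Gal in each of the 204 nuclei of cluster 6, by library, on an axis that is logarithmic above 1. Nos1 is spread over most nuclei, while the highest Vip nuclei are 1 in Stress 2 (618 UMIs) and 1 in Dexamethasone (540 UMIs) and the highest Gal nucleus is in Stress 2 (338 UMIs).

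**Figure D4:**
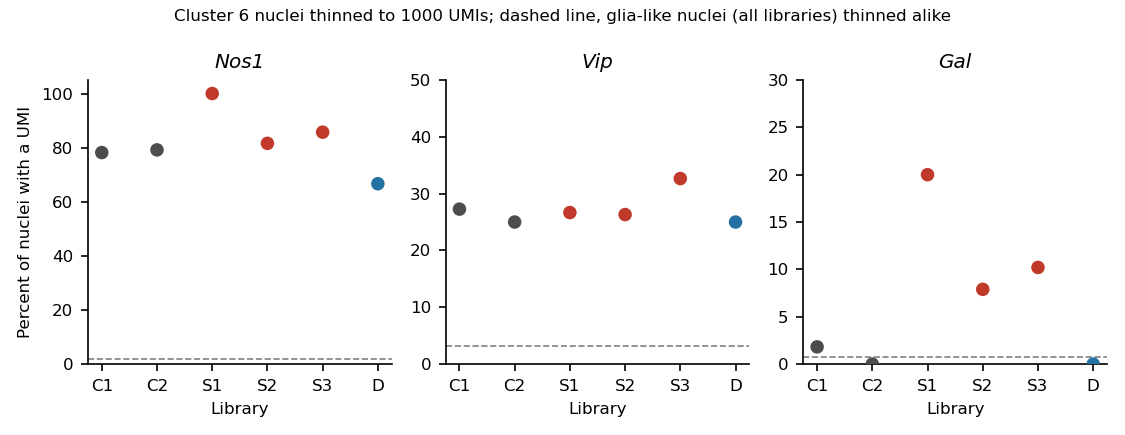
Percent of cluster 6 nuclei with at least 1 UMI of Nos1, Vip and Gal after thinning to 1000 UMIs, by library, with the share in glia-like nuclei as a dashed line. Vip shares run from 25% to 32.7% with no separation of the groups, and Gal shares are 7.89% to 20% in Stress and at most 1.82% elsewhere.

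The effector genes were present in the same neurons. Gucy1b1 in cluster 6 was 50.9 and 72.5 CPM in Control, 106, 115 and 94.4 CPM in Stress and 155 CPM in Dexamethasone. Both treated groups were above both Control libraries, also without the nucleus of most UMIs (45.4, 59.3, 87.6, 97.3, 90.0 and 117 CPM). As the mean of the levels of single nuclei, Gucy1b1 was 37.9, 123, 141, 96.9, 85.0 and 155 CPM. By that measure Stress and Control overlapped. The Stress difference did not pass (log2 fold change 0.79, SE 0.33, edgeR adjusted p = 0.439). Its partner Gucy1a1 was 50.9, 58.0, 53.2, 47.4, 53.5 and 96.5 CPM, overlapping between Control and Stress. Prkg1 was 366 and 159 CPM in Control, 213, 593 and 302 CPM in Stress and 754 CPM in Dexamethasone, with Stress and Control overlapping. In Stress 2 and in Dexamethasone the nucleus with most Vip UMIs was also the one with most Gucy1b1 and Prkg1 UMIs, among 33491 and 41883 UMIs in all.

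Cluster 6 was chosen as a unit of comparison after its levels had been seen. Of its 5263 genes tested, 24 passed between Stress and Control (0.456%; 20 higher and 4 lower in Stress), and 0 of the 6 of the 9 genes that could be tested. The 4 genes with all Stress libraries above both Control libraries were Nos1, Vip, Gal and Gucy1b1, against 15.8% of all genes tested in that direction. In Dexamethasone against Control 90 of 6526 genes passed (1.38%; 68 higher and 22 lower), among them Vip, with a log2 fold change of 2.10 (SE 0.37, edgeR adjusted p = 0.00446). Of the Vip UMIs of Dexamethasone, 97.7% lay in the 2 nuclei described above, and no fit was made without them. Vip did not pass without Control 1 (edgeR adjusted p = 0.152), and the single Dexamethasone library is taken to vary as the other libraries do. The remaining 5 did not pass, with log2 fold changes of 1.31 for Prkg1, 1.28 for Gucy1b1, 0.73 for Gucy1a1, -0.52 for Nos1 and -1.86 for Gal. Of all genes tested, 42% were above and 28.6% below both Control libraries in Dexamethasone. Against Stress, in the same fit, 52 of 6526 genes passed (0.797%), and Gal was lower in Dexamethasone (log2 fold change -4.16, SE 0.79, edgeR adjusted p = 0.0105), a difference that rests on 7 UMIs in Dexamethasone and on the 338 UMIs of 1 nucleus in Stress 2.

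Over all neuron-like nuclei the same genes showed smaller separations. Nos1 was 1160, 882, 1202, 1085, 1498 and 904 CPM, with Control and Stress overlapping. Vip was 286 and 286 CPM in Control, 344, 874 and 462 CPM in Stress and 1481 CPM in Dexamethasone, and Gal 46.5 and 36.9, 52.6, 313 and 146, and 15.8 CPM. For both peptides the 3 Stress libraries were above both Control libraries, as were 16.7% of all genes tested. Stress against Control gave 0 of 7803 genes past the threshold in edgeR's quasi-likelihood test (0%), with 810 at an unadjusted p under 0.05 and 21 called by DESeq2, and 0 of 7 of the 9 genes. Gal had a log2 fold change of 2.09 (SE 0.56, edgeR adjusted p = 0.278), Vip of 0.96 (SE 0.33, edgeR adjusted p = 0.378) and Nos1 of 0.27 (SE 0.20, edgeR adjusted p = 0.682). With no filter on low counts Gal and Vip passed (edgeR adjusted p = 6.52e-11 and 0.00255), where 98 of 18720 genes were called higher and 45 lower. In Stress 2, 1 nucleus held 338 of the 391 Gal UMIs of neuron-like nuclei, and another held 618 of the 1092 Vip UMIs.

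The receptor and effector genes of neuron-like nuclei overlapped between Control and Stress: Vipr2 (log2 fold change -0.67), Gucy1a1 (-0.13), Gucy1b1 (0.31) and Prkg1 (0.56), with edgeR adjusted p-values of 0.518 to 0.910. Dexamethasone against Control gave 8 of 8879 genes (0.0901%), all higher in Dexamethasone, and 0 of 7 of the 9. Vip came nearest, with a log2 fold change of 2.33 (SE 0.40, edgeR adjusted p = 0.0612). It passed with DESeq2 (adjusted p = 4.69e-04), and with nuclei held to at most 2% mitochondrial UMIs and at least 500 genes it turned to -1.72. The 2 nuclei that held 97.7% of the Vip UMIs of cluster 6 in Dexamethasone had 3.66% and 4.94% mitochondrial UMIs. Over all neuron-like nuclei thinned to 1000 UMIs, the share with Nos1 differed by 2.97 percentage points between the Stress and Control means (exact permutation p = 0.9), with Vip by 4.81 (exact p = 0.4), with Gal by 2.77 (exact p = 0.2) and with Vip among nuclei with Nos1 by 3.23 (exact p = 0.7).

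Transcripts of some other cell types, smooth muscle among them, moved with the groups in neuron-like nuclei. The summed level of the 7 smooth muscle markers was 38.5 and 42.5 CPM in Control, 68.8 to 226 CPM in Stress and 670 CPM in Dexamethasone, with none of the 7 at 0. Sums of the 7 glia markers were 46.5 and 17.0 CPM in Control, 24.3 to 163 CPM in Stress and 201 CPM in Dexamethasone. Stress and Control overlapped for them. The 10 neuron markers summed to 6597 to 7581 CPM with no separation of the groups. The part of depth and of these transcripts in the differences above was not tested.

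The mitochondrial limit removed most of the molecules, of the source genes as of all genes. Barcodes above 5% held 70.7% of all Nos1 UMIs, 73.2% of Vip, 84.8% of Gal and 79.5% of Npy. In these barcodes Nos1 was at 300 CPM and Vip at 206 CPM, against 322 and 214 CPM over all barcodes. Gal was at 106 against 95.1 CPM and Npy at 2.59 against 2.48 CPM. Nos1 and Vip were thus removed slightly less than all UMIs, and Gal and Npy slightly more. Clustered with no such limit (10343 barcodes, 28 clusters), neuron-like barcodes numbered 1066. Nos1 in them was 1172, 1086, 982, 1169, 1546 and 973 CPM, Vip 352, 242, 394, 661, 554 and 602 CPM, and Gal 35.7, 84.1, 36.7, 236, 110 and 29.3 CPM. Of the 3, Vip alone had all Stress libraries above both Control libraries, and none passed in Stress against Control (edgeR adjusted p = 0.257 for Vip and 0.503 for Gal; 0.0364% of genes tested passed). With the set of barcodes described next added, Gal was 42.5 and 79.4 CPM in Control, 168, 509 and 515 CPM in Stress and 23.2 CPM in Dexamethasone. Stress was then above Control for Gal as well, without passing (log2 fold change 2.59, edgeR adjusted p = 0.120; 0% of 11339 genes passed). Without the barcode of most Gal UMIs in each library (37.9, 54.8, 54.1, 294, 367 and 17.5 CPM) Stress 1 lay between the Control libraries.

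Without that limit a separate set of 158 barcodes held most of the Gal. It was led by the actin-binding protein gene Klhl1, Gal, Kcnh7 and Ntng1, had Syt1 in 95.6% and Snap25 in 82.3% of its barcodes, and held 61.3% of all Gal UMIs, 55.5% of Npy and 29.6% of Vip, but 2.95% of Nos1. It was noticed through its Gal level, so its values are a description with no test. Gal in it was 23 and 3 UMIs in Control, 145, 1216 and 2042 UMIs in the Stress libraries and 6 UMIs in Dexamethasone, from 57, 21, 10, 33, 25 and 12 barcodes. As levels these were 94.2, 22.3, 1490, 2451, 3984 and 8.23 CPM, and without the barcode with most Gal in each library 55.0, 8.23, 243, 741, 2782 and 4.55 CPM. Stress was above Control and Dexamethasone in both. Gal was in 8 of 57, 2 of 21, 4 of 10, 4 of 33, 11 of 25 and 3 of 12 barcodes. By that share Stress and Control overlapped, with Stress 2 below Control 1. The highest barcode of each Stress library held 123, 876 and 743 of its Gal UMIs. Median depths of the set were 2318, 5328, 7080, 11555, 13933 and 50191.5 UMIs a barcode, lowest for the Control libraries. The part of depth in these values was not tested.

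Vip in this set was 1212, 685, 791, 2918, 1446 and 1493 CPM, overlapping between Control and Stress. Npy had 0 and 0 UMIs in Control, 3, 53 and 12 in the Stress libraries and 13 in Dexamethasone. A single barcode held 37 of the 53 Npy UMIs of Stress 2, and another 7 of the 13 of Dexamethasone. Of the 158, 77 were also kept under the 5% limit: 26 of them in cluster 6, 30 in cluster 19, 20 in cluster 14 and 1 in cluster 12. The 26 in cluster 6 held 1422 of its Vip UMIs and 373 of its Gal UMIs but 36 of its Nos1 UMIs. The 178 other nuclei of cluster 6 had 2462, 2581, 3033, 3220, 3290 and 2066 CPM of Nos1, 432, 483, 830, 911, 796 and 1112 CPM of Vip, and 52.7, 91.2, 117, 111, 229 and 29.2 CPM of Gal. In these nuclei all Stress libraries were above both Control libraries for the 3 genes. They are part of cluster 6, with 5065 of its 5101 Nos1 UMIs, so this is no separate observation. The share of all genes with that order was not computed for them and was 15.8% in cluster 6.

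Summed over all deposited barcodes, Gal was 20.2 and 17.7 CPM in Control, 37.5, 164 and 294 CPM in Stress and 13.6 CPM in Dexamethasone. Stress was above Control, as for 12.5% of the 15767 genes with at least 50 UMIs, and without the barcode of most Gal UMIs Stress 1 (17.2 CPM) lay between the Control libraries (18 and 14.7 CPM). Nos1 (336, 127, 179, 337, 762 and 260 CPM) and Vip (161, 43.4, 91.0, 312, 370 and 321 CPM) overlapped between the groups. Gal per 100 Nos1 UMIs was 6.01 and 13.9 in Control, 21, 48.7 and 38.6 in the Stress libraries and 5.21 in Dexamethasone, with Stress above Control. Without the barcode of most Gal UMIs these were 5.38 and 11.7 in Control, 9.61, 29.1 and 28 in the Stress libraries and 4.12 in Dexamethasone, and Stress 1 lay between the Control libraries. In such sums fewer cells of a type and less RNA per cell cannot be told apart.

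Receptors lay outside these neurons. Vipr1, with 344 UMIs in kept nuclei, was at 172 CPM in the epithelium-like cluster 1, led by Kcnq1, Cftr, Htr4 and the stem cell gene Lgr5, and at 175 CPM in the cycling cell-like nuclei. It was at 2.5 to 5.2 CPM in neuron-like, glia-like and smooth muscle-like nuclei. In cluster 1 it was 130 and 139 CPM in Control, 239, 189 and 151 CPM in Stress and 213 CPM in Dexamethasone, from 11 to 33 UMIs a library. Both treated groups were above both Control libraries. How many of all genes had that order in cluster 1 was not computed, and no test was made there. Over all epithelium-like nuclei it was 77.2, 112, 108, 97.8, 117 and 166 CPM, with Control and Stress overlapping (log2 fold change 0.28, SE 0.33, edgeR adjusted p = 1.00; 0% of 4633 genes passed). Dexamethasone against Control gave 0.65 (SE 0.51, edgeR adjusted p = 0.719; 0.0322% passed). The class was made up differently in the groups: cluster 1 held 63 of 190 and 45 of 68 epithelium-like nuclei in Control, 44 of 123, 66 of 246 and 52 of 77 in Stress, and 12 of 15 in Dexamethasone. The 3 genes most like Vipr1 over clusters were Mecom (0.93), the tight junction gene Marveld2 (0.93) and Rps6ka1 (0.92).

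Vipr2 had 383 UMIs and another distribution. It was highest in the unnamed cluster 4, led by the goblet cell genes Spdef and Ern2 (184 CPM, with 229, 97.0, 125, 261, 191 and 135 CPM by library), and in the unnamed cluster 15 (150 CPM). The groups overlapped in cluster 4. In smooth muscle-like nuclei it was 34.8 and 18.7 CPM in Control, 41.9, 45.5 and 93.1 CPM in Stress and 66.4 CPM in Dexamethasone. All treated libraries were above Control there, from 3, 1, 4, 5, 17 and 16 UMIs, too few for the test across genes, and 18% of the genes tested in this class had all Stress libraries above Control. In the neuron-like cluster 10 it was at 65.8 CPM, and epithelium-like nuclei held 7 UMIs. The genes most like it were Pdzrn3 (0.80), the Wnt receptor gene Ror2 (0.80) and Slc25a17 (0.72).

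The cyclase subunits were found together in lymphatic endothelium, in neurons and in some other clusters. Lymphatic endothelium-like nuclei had 229 CPM of Gucy1a1 (49.7 to 719 by library) and 267 CPM of Gucy1b1. The neuron-like clusters 10 and 19 had 205 and 246 CPM of Gucy1a1 and 130 and 88.2 CPM of Gucy1b1. Gucy1a1 and Gucy1b1 were at 139 and 116 CPM in the unnamed cluster 15 and at 103 and 91.8 CPM in the fibroblast-like cluster 17. In the small cluster 14 they were at 248 and 186 CPM, from 24 and 18 UMIs. Vascular endothelium-like nuclei, 38 in number, had the highest Gucy1a1 level (331 CPM, 24 UMIs) and 0 UMIs of Gucy1b1. Glia-like and epithelium-like nuclei had 1.7 to 3.9 CPM of either. Over the 24 clusters the correlation of the pair was 0.77. The genes most like Gucy1a1 were the synaptic gene Stx1a (0.86), Tmtc1 (0.84) and Hdgfl3 (0.82), and those most like Gucy1b1 were Olfm1 (0.90), Phf24 (0.87) and Ttl (0.85).

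In smooth muscle-like nuclei Gucy1a1 was 34.8 and 37.4 CPM in Control, 52.3, 63.6 and 87.7 CPM in Stress and 33.2 CPM in Dexamethasone. The Stress libraries were above Control, on 2 to 16 UMIs each, and Gucy1b1 in the same nuclei (23.2, 74.8, 31.4, 100, 93.1 and 24.9 CPM) overlapped. In lymphatic endothelium-like nuclei Gucy1b1 was 497, 180, 330, 378, 154 and 276 CPM, with no separation. Its log2 fold change there was -0.38 for Stress (SE 0.63, edgeR adjusted p = 0.855; 0% of 524 genes passed) and -0.25 for Dexamethasone (SE 0.66, edgeR adjusted p = 0.946; 0.281% of 1422 passed).

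**Figure D5:**
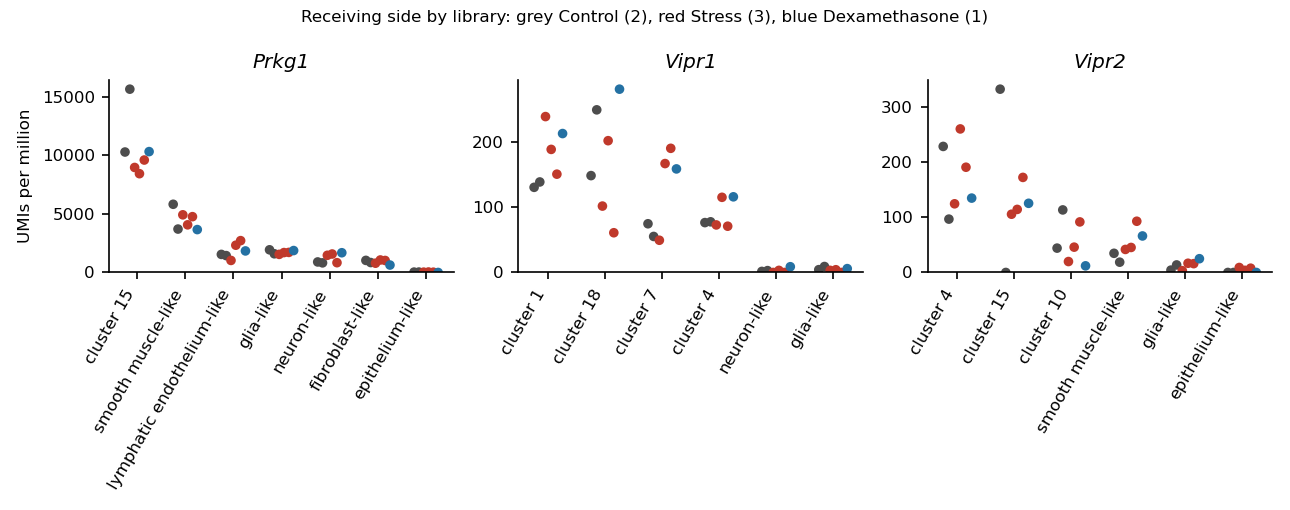
Prkg1, Vipr1 and Vipr2 by cell class or cluster, 1 point a library, in CPM, with Control in grey, Stress in red and Dexamethasone in blue. Prkg1 is high in every library in smooth muscle-like nuclei (3659 to 5819) and glia-like nuclei (1544 to 1934), with Stress and Control overlapping and Dexamethasone lowest in smooth muscle-like nuclei. Vipr1 in the epithelium-like cluster 1 is higher in all Stress libraries (151 to 239) than in Control (130 and 139), an order whose share over all genes was not computed there.

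Prkg1, with 18327 UMIs the most deeply counted of the 9, was found in muscle, neurons, lymphatic endothelium and glia. It was highest in the unnamed cluster 15, led by Hs3st4 and Ak5 (9675 CPM), and in smooth muscle-like nuclei (4381 CPM). The neuron-like clusters 21 (3085 CPM) and 19 (2130 CPM) and lymphatic endothelium-like nuclei (2054 CPM) came next, ahead of the 3 glia-like clusters (1736 to 1780 CPM), with ranges over libraries that overlap. Glia-like nuclei held 30.9% of its UMIs, neuron-like nuclei 28.8% and smooth muscle-like nuclei 18.4%. Thinned to 1000 UMIs, 94.6% of 185 smooth muscle-like and 76.4% of 808 glia-like nuclei held a Prkg1 UMI, against 3.10% of 581 epithelium-like nuclei (median 2080 UMIs before thinning, against 2229 in smooth muscle-like nuclei). In smooth muscle-like nuclei it was 5819 and 3704 CPM in Control, 4919, 4064 and 4762 CPM in Stress and 3659 CPM in Dexamethasone. The groups overlapped for Stress, and Dexamethasone lay just under the lower Control library. The log2 fold change was -0.14 for Stress (SE 0.26, edgeR adjusted p = 0.90; 0.442% of 2035 genes passed) and -0.47 for Dexamethasone (SE 0.36, edgeR adjusted p = 0.724; 2.71% of 3064 passed).

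In glia-like nuclei Prkg1 was 1934, 1595, 1544, 1697, 1712 and 1870 CPM, with Control, Stress and Dexamethasone overlapping. Its log2 fold change was -0.14 for Stress (SE 0.18, edgeR adjusted p = 0.819), in a class where 2.05% of 6543 genes passed, and 0.17 for Dexamethasone (SE 0.26, edgeR adjusted p = 0.772), where 6.11% of 7696 passed. The class was made up differently in the groups: its cluster 5, led by genes such as Arih1, Nr4a3 and Crem, held 7 of 200 and 4 of 138 glia-like nuclei in Control, 12 of 124, 27 of 118 and 84 of 184 in Stress, and 79 of 114 in Dexamethasone. In cluster 15 Prkg1 was 10278 and 15642 CPM in Control, 8959, 8429 and 9594 CPM in Stress and 10313 CPM in Dexamethasone. Stress was below Control there, from 185 and 103 UMIs in Control and 294 to 999 in Stress. The cluster had 8 and 2 Control nuclei, so no test was made. How many of all genes had Stress below Control in cluster 15 was not computed. The genes most like Prkg1 over clusters were Mpdz (0.94), Lrrc49 (0.90) and Arhgap23 (0.89).

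In fibroblast-like nuclei 1 of the 9 genes could be tested for Stress (1.45% of 1725 genes passed) and 3 for Dexamethasone (2.39% of 2843), among them Nos1 with 0 UMIs in Control and Dexamethasone, and none passed. Over the receiving classes together, none of the 9 genes passed edgeR's test in either comparison with the nuclei kept here. With no mitochondrial limit Vip passed in glia-like nuclei for Dexamethasone (log2 fold change 2.92, edgeR adjusted p = 0.00140; 4.89% of genes tested passed). Glia-like nuclei were taken above as the background for Vip and not as a source of it. The part of transcripts from other cells in this call was not tested, and it rests on the single Dexamethasone library. In simulated counts for Stress, edgeR called 33% of genes changed 2-fold and 79% of those changed 4-fold in glia-like sums (6543 genes), 18% and 76% in smooth muscle-like sums (2035 genes), 2% and 51% in epithelium-like sums (4633 genes), 19% and 75% in fibroblast-like sums (1725 genes) and 31% and 79% in lymphatic endothelium-like sums (524 genes). For Dexamethasone these shares were 13% and 55% in glia-like (7696 genes), 7% and 43% in smooth muscle-like (3064 genes), 1% and 4% in epithelium-like (6212 genes), 0% and 32% in fibroblast-like (2843 genes) and 9% and 38% in lymphatic endothelium-like sums (1422 genes). In neuron-like sums they were 32% and 81% for Stress (7803 genes) and 7% and 54% for Dexamethasone (8879 genes). Most simulated 2-fold changes were therefore missed in each class. Unchanged genes were also called, 10 beside 113 changed ones in neuron-like sums for Stress and 7 beside 61 for Dexamethasone. In the other classes 3 to 9 unchanged genes were called for Stress and 2 to 6 for Dexamethasone. For Dexamethasone in epithelium-like sums these were 4, beside 5 changed ones.

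Around these genes, 76 others of the pathway were followed as a list. In neuron-like nuclei 54 could be tested for Stress and 0 passed, with a median log2 fold change of 0.10 against 0.00 over all genes tested. The 3 of smallest p were the small-conductance potassium channel gene Kcnn2 (-0.79, edgeR adjusted p = 0.227), the stimulatory G protein gene Gnas (0.69, edgeR adjusted p = 0.278) and the protein kinase A catalytic subunit gene Prkacb (0.68, edgeR adjusted p = 0.303). For Dexamethasone 58 could be tested and 0 passed.

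In cluster 6, 48 of the list could be tested for Stress and 1 rose, against 0.456% of all genes called. Scg2, the secretogranin II gene of dense core vesicles, was 178 and 109 CPM in Control, 287, 365 and 483 CPM in Stress and 565 CPM in Dexamethasone. All treated libraries were above both Control libraries. The log2 fold change for Stress was 1.34 (SE 0.27, edgeR adjusted p = 0.0290), and it did not pass without Control 2 (edgeR adjusted p = 0.217) or without Stress 3 (edgeR adjusted p = 0.232). For Dexamethasone it was 1.78 (SE 0.32, edgeR adjusted p = 0.00586) and passed without each library in turn, with 94 of the 164 Dexamethasone UMIs in 1 nucleus.

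Of 51 genes of the list tested in cluster 6 for Dexamethasone, 1 rose and 1 fell, against 1.38% of all genes called. The one that fell was Gucy1a2, the alternative alpha subunit of the cyclase, at 567 and 457 CPM in Control, 309, 369 and 269 CPM in Stress and 200 CPM in Dexamethasone. All treated libraries were below both Control libraries. The log2 fold change was -1.49 for Dexamethasone (SE 0.32, edgeR adjusted p = 0.0216; without Control 1 edgeR adjusted p = 0.153) and -0.75 for Stress, which did not pass (edgeR adjusted p = 0.204).

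In the receiving classes Akap12, a scaffold that anchors protein kinase A, was the member of the list that passed. In glia-like nuclei it was 184 and 210 CPM in Control, 184, 262 and 290 CPM in Stress and 815 CPM in Dexamethasone. The Dexamethasone library stood apart from the other 5. The log2 fold change for Dexamethasone was 2.14 (SE 0.28, edgeR adjusted p = 1.02e-04), 1 of 38 of the list tested, against 6.11% of all genes, and 0 of 32 passed for Stress, against 2.05%. The glia-like cluster 5 held 79 of the 114 Dexamethasone nuclei, as given above, and the 7 smooth muscle markers in glia-like nuclei summed to 34.3 and 38.8 CPM in Control, 38.7 to 158 CPM in Stress and 427 CPM in Dexamethasone, and their part in the difference was not tested. In smooth muscle-like nuclei Akap12 was 69.7, 56.1, 147, 45.5, 121 and 332 CPM and also passed for Dexamethasone (2.27, SE 0.58, edgeR adjusted p = 0.0169), with 52 of its 80 Dexamethasone UMIs in 1 nucleus, 1 of 24 of the list tested against 2.71% of all genes. In these nuclei the 7 glia markers summed to 34.8 and 0 CPM in Control, 27.4 to 209 CPM in Stress and 647 CPM in Dexamethasone, with Sox10 at 0, and the 10 neuron markers to 116 and 131, 83.7 to 218, and 411 CPM, with Tubb3 at 0. The part of these transcripts was not tested. The Akap12 call was lost with DESeq2 (adjusted p = 0.864), without either Control library and with no mitochondrial limit (edgeR adjusted p = 0.373). Epithelium-like, fibroblast-like and lymphatic endothelium-like nuclei had 0 calls among 26, 17 and 9 genes of the list for Stress and among 31, 25 and 16 for Dexamethasone.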

How the data were processed

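Single-nucleus RNA-seq of 6 libraries (Control 2, Stress 3, Dexamethasone 1; groups and replicate numbers from the labels) was analysed from the UMI counts per gene and barcode that the authors deposited. Per the file headers these counts were made with Cell Ranger 4.0.0 (Control and Stress) and 5.0.1 (Dexamethasone), and the submitters' processing notes name Cell Ranger 5 and 5.0 and mm10, so that the software version cannot be told apart from the Dexamethasone group. How introns were counted is not given in the sources used here.

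Nuclei of 300 or more genes and no more than 5% mitochondrial UMIs passed (3461). Scrublet, run per library through scanpy 1.11.5, marked 31 of them (0.896%) as doublets, which were removed. Leiden clustering (leidenalg 0.10.2, resolution 1) used 2000 variable genes, 30 principal components and 15 neighbours, without mitochondrial, ribosomal, sex-linked, glucocorticoid target and immediate early genes and the 9 genes described. Clusters were named from marker lists. A cluster stayed unnamed with fewer than 3 detected markers, with under 1/3 of its libraries' median UMIs and no marker among its 10 leading genes, or, a rule added after seeing the data, with no marker among those 10 and another class's markers in more of its nuclei.

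UMIs were summed per library and class, and classes with at least 10 nuclei in each library compared were tested with edgeR 4.0.16 (filterByExpr, TMM, quasi-likelihood test, Benjamini-Hochberg over all genes tested, threshold 0.05) in R 4.3.3: Stress against Control on 5 libraries, Dexamethasone against Control on all 6. The steps were tested on simulated data. Shares of nuclei used counts thinned to 1000 UMIs and exact two-sided permutation tests over libraries. Likeness was Pearson's correlation of log2(CPM + 10) over clusters of at least 20 nuclei, among genes with at least 200 UMIs, and the 3 highest were named. Of the pathway list, genes past the threshold were named, or the 3 of smallest p.

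The 9 genes, the marker lists and the pathway list were chosen with earlier results of these data known. Alternatives were DESeq2 1.42.0, no filter on low counts, thinned totals, a stricter filter of nuclei (500 genes, 2%), doublets kept, Leiden resolutions 0.5 and 2, the 9 genes kept among the clustering genes, a replicate block and leaving out each library. Chosen after seeing the data were cluster 6 alone, cluster 14 added, no mitochondrial limit, with and without the cluster led by Klhl1 and Gal, leaving out Control 1 and Stress 1 together, the lymphatic class, Dexamethasone against Stress, values without the 1 or 2 nuclei of most UMIs and sums over all barcodes.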

Additional observations from a re-analysis of the deposited data

How the results depend on the processing

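In neuron-like nuclei the 0 genes past the threshold for Stress became 143 with no filter on low counts, 21 with DESeq2, 4 with thinned totals, 7 with the replicate block, 16 without Control 1 and Stress 1 together, 4 with no mitochondrial limit and 0 to 3 with 1 library left out, and of the 9 genes 2 passed with no filter. The 8 genes for Dexamethasone became 187 with no filter, 18 with DESeq2, 113 with the replicate block, 38 with no mitochondrial limit, 172 with the cluster led by Klhl1 and Gal added to that, and 0 with doublets kept, with Leiden resolution 0.5, with the 9 genes kept among the clustering genes and with cluster 14 added, and ran from 0 to 29 with 1 library left out. Of the 9 genes, 2 passed for Dexamethasone with no filter, 1 with DESeq2, 1 with thinned totals, 1 with the replicate block and 0 to 1 with 1 library left out. In cluster 6 leaving out 1 library gave 9 to 42 genes for Stress, 0 to 1 of them among the 9, and 35 to 211 for Dexamethasone, 0 to 2 among the 9. The cause of these changes was not tested.

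Several log2 fold changes, none of them past the threshold, changed sign. For Stress in neuron-like nuclei Gucy1b1 (0.31) was -0.14 without Control 1 and Stress 1, -0.071 with no mitochondrial limit and -0.12 with the cluster led by Klhl1 added, and Nos1 (0.27) was -0.00488 and -0.034 in the last 2. With 1 library left out the ranges were -0.65 to 0.41 for Gucy1a1, -0.043 to 0.61 for Gucy1b1, -1.52 to 0.35 for Vipr2 and, in cluster 6, -0.039 to 1.25 for Prkg1. For Dexamethasone Gucy1a1 (-0.02) was 0.33 with the replicate block, 0.20 with doublets kept, 0.19 with Leiden resolution 0.5, with the 9 genes kept and with cluster 14, 0.16 with no mitochondrial limit and 0.011 with the cluster led by Klhl1, and -0.53 to 0.55 with 1 library left out. Gucy1b1 (0.29) was -0.049 with the stricter filter, -0.40 with no mitochondrial limit and -0.30 with the cluster led by Klhl1, and -0.057 to 0.61 with 1 library left out. Vip (2.33) was -1.72 with the stricter filter.

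In glia-like nuclei Prkg1 was 0.062 for Stress without Control 1 and Stress 1 and -0.27 to 0.017 with 1 library left out, and -0.023 for Dexamethasone with the stricter filter, and 1 of the 9 genes passed for Dexamethasone with no mitochondrial limit. In smooth muscle-like nuclei Prkg1 for Stress was 0.0070 with no filter, 0.12 without Control 1 and Stress 1 and -0.41 to 0.18 with 1 library left out. In lymphatic endothelium-like nuclei Gucy1b1 for Stress was 0.035 with the replicate block, 0.47 without Control 1 and Stress 1 and -0.85 to 0.55 with 1 library left out. For Dexamethasone there, Gucy1a1 was 0.0098 with no filter, 0.66 with the replicate block and -1.33 to 2.61 with 1 library left out, and Gucy1b1 0.22 with no filter and -0.70 to 0.62 with 1 library left out.

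The difference in the share of neuron-like nuclei with Vip was -0.892 percentage points with nuclei thinned to 500 UMIs, and that for Vip among nuclei with Nos1 -2.84. For Npy it was 3.36 without thinning, 0.344 at 500 UMIs and 1.67 with the stricter filter. With 1 library left out the difference ran from -0.185 to 8.50 for Nos1 and from -0.0451 to 6.94 for Vip among nuclei with Nos1.

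Replicate numbers stand in the labels, but same-numbered Control and Stress libraries did not deviate together from their group means (correlations 0.03 and 0.10 over genes in neuron-like nuclei, 2 pairs), so the replicate block was not used to read the results. The limits are the 2 Control libraries and the 1 Dexamethasone library, which has no replicate, the few nuclei of cluster 6 in Stress 1 and Dexamethasone, UMI counts under 20 a library for the receptors in most classes, and Vip and Gal UMIs concentrated in single nuclei.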
